A study of Mus musculus with 14 samples.

Results

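The hearts of FS6KD mice with and without the transcription factor Atf3 were compared by bulk RNA-seq of whole heart tissue. The comparison comprised the 8 of 14 libraries of the series whose titles give an Atf3 genotype, 4 Atf3+/+FS6KD and 4 Atf3-/-FS6KD hearts. All 8 were labelled female and came from mice of 12 weeks. The question was how the loss of Atf3 affects the transcriptome of a heart with an energy defect, described here across genes, cell type markers and libraries.

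All mice of both groups carried a gene-trap knockdown of Ndufs6 (FS6KD), on a mixed background of C57BL/6J and 129/Ola. Ndufs6 encodes an accessory subunit of respiratory complex I, the entry point of NADH electrons into the respiratory chain. The Atf3 allele was a large CRISPR-Cas9 deletion between exon 2 and exon 4 made in FS6KD fertilized eggs, so the gene was lost in all cells of the body and not only in cardiomyocytes. No heart with intact Ndufs6 was among these libraries, and the 8 libraries cannot show what Atf3 loss does in a heart without the complex I defect. The labels number the samples of a genotype as replicates and do not name the animals, so p-values measure the spread between these samples.

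ATF3 is a basic leucine zipper protein of the ATF/CREB family that is induced by many kinds of cell stress, including the integrated stress response, and binds DNA as a homodimer or with other leucine zipper proteins such as JUN. It is best known as a repressor and as a brake on inflammatory gene expression in macrophages. In the heart it is induced by pressure, ischemia and mitochondrial stress, in cardiomyocytes as well as in fibroblasts and immune cells.

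Library depth split each genotype. Replicates 1 and 2 held between 33914931 and 42409691 counts and are called shallow, whereas replicates 3 and 4 held between 112904389 and 134920825 counts and are called deep. No label names a batch. Log2 values of any 2 libraries correlated across genes with Pearson r between 0.974 and 0.990, and each library had between 14589 and 14900 genes above 1 CPM, the unit of counts scaled to the library total. On the first principal component (27.4% of the variance), Atf3+/+FS6KD replicates 1 to 4 lay at -3.09, -40.3, -6.16 and -13.9, and Atf3-/-FS6KD replicates 1 to 4 lay at 16.2, 21.1, 13.8 and 12.3. The genotypes did not overlap on this axis, and Atf3+/+FS6KD replicate 2 was the farthest from the rest.

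The library labelled Atf3-/-FS6KD replicate 1 stood apart in X-linked genes. Xist, the noncoding RNA that coats and silences the inactive X chromosome in female cells, was at 0.339 CPM (12 counts) in this library. The other 7 libraries held between 138 and 174 CPM. Tsix, the transcript antisense to Xist, was at 0.282 CPM in this library against 3.50 to 6.70 CPM elsewhere. The Y-linked genes Ddx3y, Eif2s3y and Kdm5d had 0 counts in all 8 libraries, which allows up to 3 counts each. Uty, also Y-linked, was at 0.198 CPM (7 counts) in this library and at 0.0639 to 0.289 CPM in the other 7. Genes known to be expressed from both X chromosomes were low as well. Eif2s3x reached 56.0% of the median of the other 7 libraries, Kdm6a 60.4%, Kdm5c 63.5%, Pbdc1 72.0%, 5530601H04Rik 71.8% and Ddx3x 85.1%. The median deviation over 284 X-linked genes was 0.00788 on the log2 scale, so X-linked genes as a whole were not lower in this library. The label gives this library as female, and the cause of the difference was not tested. Counts of genes, medians of gene lists and fold changes of named genes were also computed without this library.

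**Figure D1:**
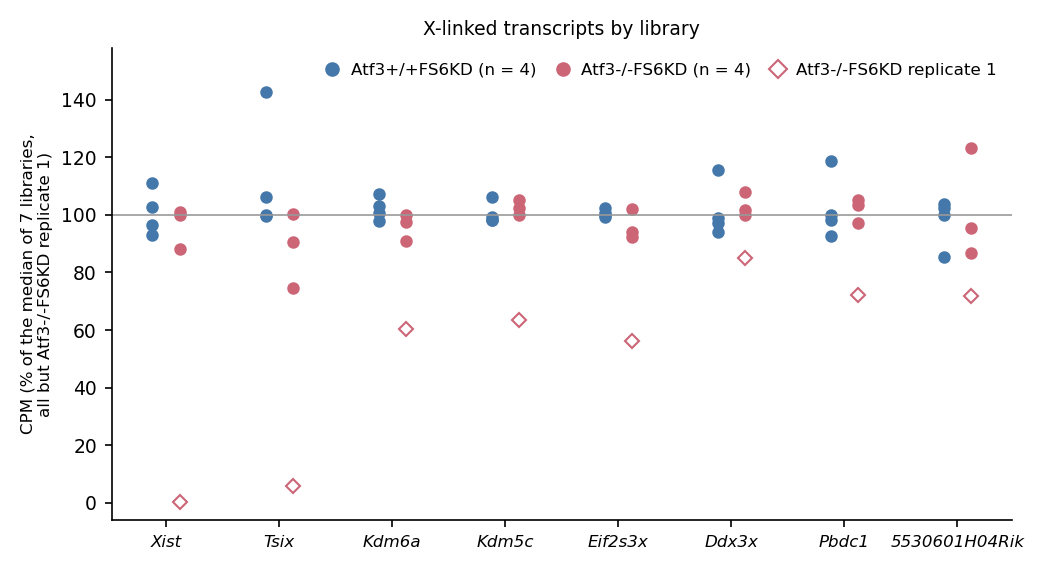
X-linked RNAs in the 8 libraries, as CPM in percent of the median of all libraries except Atf3-/-FS6KD replicate 1 (vertical axis). Each point is a library and the open diamond is Atf3-/-FS6KD replicate 1, in which Xist was at 0.339 CPM and Eif2s3x at 56.0% of that median.

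The tissue label was checked on markers. Myh6, the cardiac myosin heavy chain, lay between 16887 and 30889 CPM in the 8 libraries. None of the 18 listed markers of lung, skeletal muscle or thymus passed 1 CPM in any library, and together they summed to between 1.48 and 3.18 CPM. Ndufs6 was at 2.99, 2.80, 3.24 and 3.78 CPM in Atf3+/+FS6KD against 2.77, 2.33, 3.16 and 3.60 CPM in Atf3-/-FS6KD. Its level was low in all libraries and the groups overlapped. Atf3 itself was counted at 6.35 to 25.7 CPM in Atf3+/+FS6KD and at 14.3 to 37.6 CPM in the libraries labelled Atf3-/-FS6KD (log2 fold change 1.14, SE 0.49, adjusted p 0.480 in edgeR). Counts were given per gene, and which exons they came from was not tested, so this value does not check the label of a deletion between exons, and all directions below rest on the labels.

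EdgeR called 0 (0%) of 15592 genes at an adjusted p below 0.05 between the genotypes, and limma called 0 too. The lowest adjusted p in edgeR was 0.0743. With an unadjusted p below 0.05, 844 genes (5.41%) were higher and 731 (4.69%) lower in Atf3-/-FS6KD. The genotypes did not overlap for 480 genes that were higher (3.08%) and for 410 that were lower (2.63%), together 890 (5.71%). With the library size as the only scaling, 960 genes were higher and 148 lower without overlap, because that scaling moved the median of all genes by 0.06 on the log2 scale. Among the 890 genes, a log2 fold change beyond 1 was found for 31 higher and 16 lower genes. DESeq2 called 208 genes (1.33%), 107 higher and 101 lower, and 186 of the 208 were among the 890. Because no gene passed in edgeR, genes below are described as higher or lower with their values, and a call by DESeq2 is named as such.

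The fixed rule named 12 genes in each direction, with edgeR adjusted p between 0.121 and 0.459, and DESeq2 called 17 of the 24. Spp1, which encodes the matrix cytokine osteopontin of activated macrophages and fibroblasts, differed most (log2 fold change 2.33). EdgeR called it without wild-type replicate 1 (adjusted p 0.00395) or knockout replicate 3 (0.0394), and with no filter on low counts. Npl (N-acetylneuraminate pyruvate lyase, 1.36) followed. Lgals3, which encodes the lectin galectin-3 of macrophages, was at 5.47, 4.43, 3.05 and 3.57 CPM in the wild-type replicates. The knockout replicates were at 7.0, 8.86, 14.3 and 6.01 CPM (log2 fold change 1.15, SE 0.29, DESeq2 adjusted p 0.0100). Replicate 3 was the highest of the 8 and the log2 fold change was 0.83 without it.

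Ptn, which encodes the heparin-binding growth factor pleiotrophin, was at 10.3, 5.16, 9.78 and 6.34 CPM against 18.6, 19.2, 15.9 and 15.8 CPM (log2 fold change 1.13, SE 0.21, DESeq2 adjusted p 0.000108). All 4 knockout libraries lay close together and above every wild-type library. Lox, the collagen cross-linking lysyl oxidase, was at 9.08, 3.47, 8.89 and 6.78 CPM against 15.5, 17.2, 18.3 and 10.4 CPM (log2 fold change 1.11, SE 0.28, DESeq2 adjusted p 0.00981). Its lowest wild-type library was replicate 2. Piezo2, a mechanically gated ion channel (1.04), Adam12, a metalloprotease of activated stroma (0.93), and Ccl2, the monocyte-attracting chemokine (0.96), were higher without overlap too. Ngfr, the low-affinity neurotrophin receptor, was higher by 1.01, but its knockout libraries held 5.56, 2.02, 2.82 and 1.98 CPM. Without replicate 1 its log2 fold change was 0.59. Ccl21b, Ccl21c and Ccl21d, copies of the lymphatic chemokine Ccl21, were each higher by 0.97. These copies are nearly identical and had almost the same values in every library, so they count as 1 uncertain measurement.

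On the lower side, Fmn1, which encodes the actin nucleator formin 1, had the greatest difference. It was at 74.3, 112, 62.5 and 105 CPM in wild-type and at 6.16, 5.32, 52.9 and 5.13 CPM in knockout replicates 1 to 4 (log2 fold change -2.32, SE 0.76, adjusted p 0.392 in edgeR). Only replicate 3 among the knockout libraries lay near the wild-type range. Without it the log2 fold change was -4.01 and edgeR called the gene (adjusted p 0.00133), as it did not with all 8 libraries. Lgr6, a receptor for R-spondins, was at 73.4, 56.1, 47.0 and 49.5 CPM against 3.45, 37.1, 22.7 and 17.6 CPM (log2 fold change -1.48, SE 0.51). The knockout libraries spread widely, with replicate 1 the lowest, and the value without it was -1.14. Cryzl2, a quinone oxidoreductase-like gene, was at 12.6, 11.3, 10.2 and 7.82 CPM against 0.989, 5.09, 5.17 and 4.22 CPM (-1.41, SE 0.39). Replicate 1 was again the lowest, and the value without it was -1.12.

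Fgf2, basic fibroblast growth factor, was at 7.26, 14.3, 13.8 and 21.3 CPM against 6.24, 5.98, 6.97 and 5.73 CPM (log2 fold change -1.19, SE 0.27, DESeq2 adjusted p 0.00201). The 4 knockout libraries were within a narrow range just below the lowest wild-type library, replicate 1, without which edgeR called the gene (adjusted p 0.0233). Pigp, which acts in the synthesis of glycosylphosphatidylinositol anchors, was at 24, 10.8, 24 and 27.2 CPM against 10.4, 10.3, 9.62 and 9.74 CPM (-1.11, SE 0.24, DESeq2 adjusted p 0.00103). Wild-type replicate 2 alone came near the knockout range, and without it the value was -1.33 and edgeR called it (adjusted p 0.00145). Ramp1, a coreceptor for calcitonin gene-related peptide (-1.15), Adh1, alcohol dehydrogenase (-1.08), and Gchfr, the feedback regulator of GTP cyclohydrolase (-0.93), were lower, each called by DESeq2. Cntn5, a neural adhesion molecule, was lower by 1.06 on the log2 scale. Apobec3, a cytidine deaminase that restricts retroviruses (-1.04), was at 2.22 CPM in knockout replicate 4 and at 9.72 to 10.6 CPM in the other 3, just below the lowest wild-type library at 11 CPM. Hspa1a and Hspa1b, the near-identical inducible Hsp70 genes between which reads can be split, were lower by 0.96 and 0.77.

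**Figure D2:**
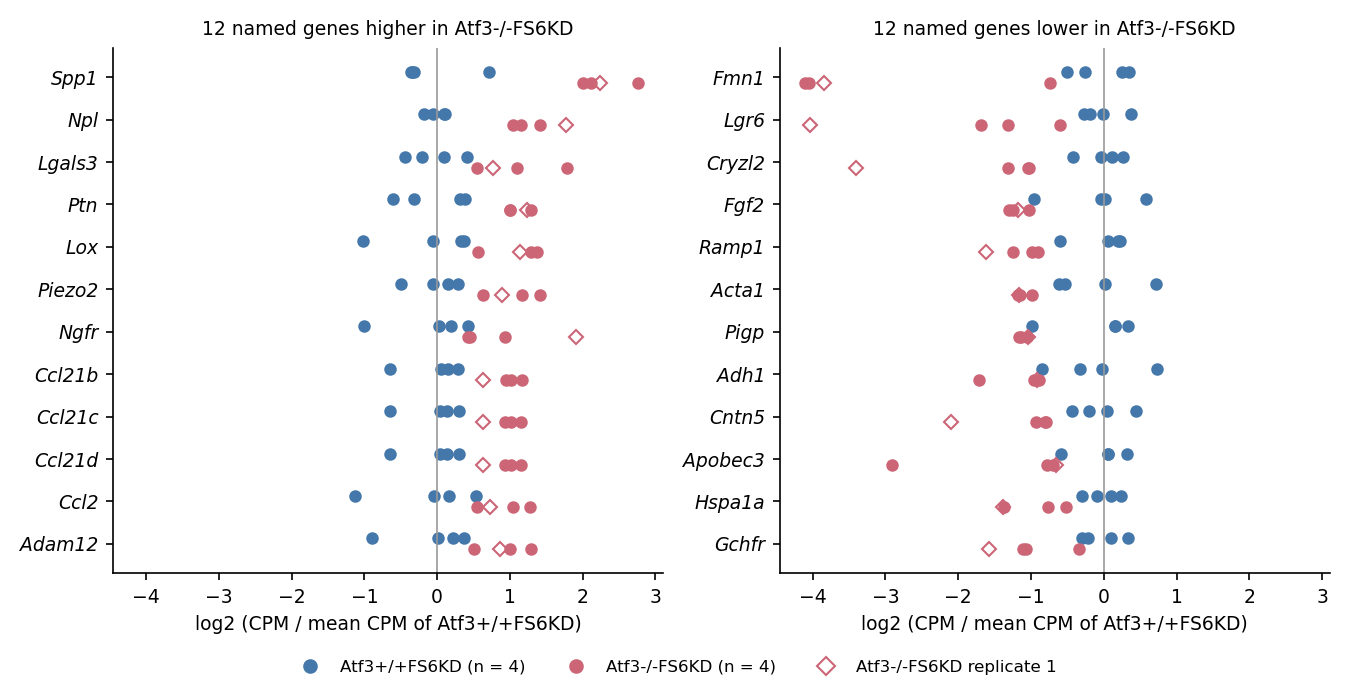
The 12 genes higher (left) and 12 lower (right) in Atf3-/-FS6KD named by the fixed rule, as log2 of CPM over the mean CPM of Atf3+/+FS6KD (horizontal axis). Each point is a library and the open diamond is Atf3-/-FS6KD replicate 1. Fmn1 in knockout replicate 3, at 52.9 CPM, lies far from the other 3.

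Fibroblast and matrix genes stood mostly on the higher side in Atf3-/-FS6KD. Of 22 fibroblast identity genes, 19 had a log2 fold change above 0, 3 were higher and 0 lower without overlap (13.6%, against 5.71% of all genes), and 11 were higher at an unadjusted p below 0.05, as were 5.41% of all genes. The median log2 fold change was 0.31, against 0.0005 over all genes tested. Of 32 genes of fibroblast activation, 30 were above 0, 3 were higher and 0 lower without overlap (9.38%), and the median was 0.41. Without Cthrc1, which passed the filter of 1 CPM only through knockout libraries, 2 of 31 were without overlap (6.45%). EdgeR adjusted p values of all these genes were above the threshold. In bulk tissue, more cells of a type and more RNA per cell cannot be told apart, here and in all lists that follow.

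Col3a1, the collagen of reticular fibers, was at 344, 282, 316 and 363 CPM in Atf3+/+FS6KD and at 580, 468, 649 and 444 CPM in Atf3-/-FS6KD (log2 fold change 0.71, SE 0.13, DESeq2 adjusted p 0.000176). Every knockout library exceeded every wild-type library. Fn1, which encodes fibronectin, was at 86.4, 75.4, 65.3 and 69.8 CPM against 105, 125, 131 and 93.3 CPM (0.61, SE 0.12, DESeq2 adjusted p 0.00123). Col1a1, the main fibrillar collagen chain, was higher by 0.63 (SE 0.18) and was highest in knockout replicate 3, at 233 CPM. Cthrc1, a marker of matrix-producing fibroblasts, was low in all libraries, at 0.307 to 0.716 CPM against 0.735 to 1.47 CPM (1.38, SE 0.34, DESeq2 adjusted p 0.0337). Pdgfra, the receptor that marks cardiac fibroblasts, differed little in size (0.19) although the groups did not overlap. Timp1 (1.28, SE 0.39) and Tnc (1.48, SE 0.46), an inhibitor of matrix proteases and the matrix protein tenascin C, overlapped between the groups.

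The summed level of the fibroblast identity list was 3538, 4053, 4918 and 4238 CPM in Atf3+/+FS6KD and 4577, 5289, 5454 and 4528 CPM in Atf3-/-FS6KD. Sums here and below cover every listed gene, also those below the filter. Wild-type replicate 3 lay within the knockout range, so the sums overlapped where some of the single genes did not. Among 20 basement membrane genes, 2 were higher and 0 lower without overlap (10%, against 5.71% of all genes, median 0.11). The median was 0.06 without wild-type replicate 3 and 0.07 in the shallow libraries. They were Sparc, a collagen-binding matrix protein (0.38, DESeq2 adjusted p 0.00837), and Col15a1 (0.37). The list of activation genes had a median of 0.64 in the shallow and 0.27 in the deep libraries, and 0.47 without Atf3-/-FS6KD replicate 1. The list of identity genes had medians of 0.34, 0.23 and 0.35.

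Other lists of cells of the vessel wall were counted in the same way. Of 25 endothelial genes, 1 was higher without overlap (4.00%, below the 5.71% of all genes), and the summed level was 5030 to 5265 CPM in Atf3+/+FS6KD and 4958 to 5373 CPM in Atf3-/-FS6KD. The 1 gene was Esam, an adhesion molecule of endothelial junctions (0.16). Of 11 endocardial and venous genes, 0 were without overlap, with a median of -0.15 that was -0.04 without wild-type replicate 3. Of 9 lymphatic genes, 1 was higher without overlap (11.1%, median 0.30, and 0.12 in the shallow libraries). It was Flt4, the receptor for the lymphatic growth factor VEGF-C, at 29.0, 25.7, 29.4 and 31.8 CPM against 32.2, 34.3, 42.6 and 38.8 CPM (0.35, SE 0.10). Of 18 pericyte and smooth muscle genes, 1 was lower without overlap (5.56%, below the 5.71% of all genes). It was Des, which encodes the intermediate filament desmin and is also abundant in cardiomyocytes (-0.17). The median of this list was 0.12 while its summed level, in which Des dominates, was 0.928 times that of wild type. The median was -0.04 in the shallow and 0.30 in the deep libraries, and 0.18 without knockout replicate 1 or without wild-type replicate 2.

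Macrophage genes were on the higher side as well. Of 23 pan-macrophage genes, 22 had a log2 fold change above 0, 2 were higher and 0 lower without overlap, and 8 were higher at an unadjusted p below 0.05, as were 5.41% of all genes (median 0.32). The share without overlap was 8.70%, against 5.71% of all genes. Aif1 passed the filter only through knockout libraries, and the median was 0.22 without knockout replicate 2. Both genes without overlap take part in sensing and clearing dying cells. Mertk, a receptor for apoptotic cells, was at 6.95, 5.50, 6.74 and 4.61 CPM against 10.3, 9.23, 7.0 and 10.01 CPM (0.62, SE 0.16, DESeq2 adjusted p 0.0497). Cx3cr1, the fractalkine receptor, was at 5.95, 3.66, 4.43 and 7.46 CPM against 9.32, 9.62, 10.9 and 7.56 CPM (0.79, SE 0.21, DESeq2 adjusted p 0.0367). In each gene 1 knockout library lay just above the highest wild-type library. The summed level of the list was 483 to 577 CPM in Atf3+/+FS6KD and 536, 790, 657 and 588 CPM in the knockout replicates, and the groups overlapped only through replicate 1.

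The macrophage subsets were not alike in their values, and no test of a difference between subsets was made. The list of resident macrophage genes had 0 of 14 without overlap and a median of 0.03, with summed levels of 792 to 906 CPM and 800 to 898 CPM. Its median was -0.09 in the shallow and 0.18 in the deep libraries, and 0.15 without Atf3-/-FS6KD replicate 1. Timd4, a marker of long-lived resident cells, lay between 0.989 and 2.58 CPM with overlap. Of 10 monocyte genes tested, 1 was higher without overlap (10%, against 5.71% of all genes) and the median was 0.59, whereas the summed level was 0.852 times that of wild type because Nr4a1, at 18.3 to 205 CPM, holds much of the sum. The gene without overlap was Itgax (CD11c), at 0.645, 0.861, 0.367 and 0.852 CPM against 1.07, 2.78, 0.970 and 1.09 CPM (1.11, SE 0.41). Itgax and 3 more of the 10 passed the filter only through knockout libraries, so their side was set in part by the filter. The median was 0.49 over the 8 genes with a mean above 1 CPM. The median of all 10 was 0.35 in the deep libraries and 0.29 without knockout replicate 2. Of the 10, 8 had a log2 fold change above 0. The 2 below 0 were Nr4a1 and Ly6c2, a monocyte marker at 10.2 to 16.9 CPM against 10.8 to 13.8 CPM (-0.04). Of 23 genes of the Trem2 and Spp1 macrophage list, 5 were higher and 1 lower without overlap (26.1%, against 5.71% of all genes), with a median of 0.21. The higher members were Spp1, Npl, Lgals3, Itgax and Slc15a3, a lysosomal peptide transporter (0.62). The values of Spp1, Npl and Slc15a3 in this comparison were known when the list was made, so their direction is not independent. Without these 3 the median of the other 20 was 0.14, and Lgals3 and Itgax were higher and 1 gene lower without overlap (15%). Itgax and Mmp12 passed the filter only through knockout libraries. The median of all 23 was 0.12 without knockout replicate 2. The lower member was Lpl, lipoprotein lipase (-0.18), a gene that cardiomyocytes also express and whose level dominates the sum of the list (0.937 times that of wild type).

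Of 23 complement and pattern recognition genes, 2 were higher and 0 lower without overlap (8.70%, against 5.71% of all genes, median 0.31). Clec4d and Nlrp3 passed the filter only through knockout libraries, and among the 20 genes with a mean above 1 CPM 1 was without overlap (5.0%). Without knockout replicate 2 the median of the list was 0.18. Nlrp3, the inflammasome sensor, was at 0.669, 0.615, 0.419 and 0.701 CPM against 1.27, 1.23, 0.876 and 0.823 CPM (0.79, SE 0.25). Tlr2, which recognizes bacterial lipoproteins, was higher by 0.35 (SE 0.16). Its knockout replicate 2 was at 9.21 CPM and the other knockout libraries at 5.87 to 6.37 CPM, against 4.59 to 5.78 CPM in wild type. Of 21 genes of Fc receptors and phagocytosis, 1 was without overlap (4.76%), Mertk again. Among 29 chemokines and cytokines, 3 were higher and 0 lower without overlap (10.3%, median 0.21). Ccl22, Ccl5 and Lif passed the filter only through knockout libraries, and the median was 0.15 over the 24 genes with a mean above 1 CPM. The median of all 29 was 0.12 without knockout replicate 2. Besides Ccl2 the genes without overlap were Cxcl16, at 6.23, 6.27, 5.23 and 6.02 CPM against 7.20, 12.1, 8.80 and 8.37 CPM (0.62, SE 0.15, DESeq2 adjusted p 0.0259), and Ccl12 (1.17, SE 0.35). Knockout replicate 2 was the highest library for both.

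Lymphocyte genes were scarce. Of 19 listed markers of T, B and NK cells, 7 passed 1 CPM. Of these, 4 (Cd3e, Cd3g, Cd79b and Trbc2) did so only through knockout libraries, so that a value above 0 was set in part by the filter. The median of the 7 was 0.57, but it was 0.14 without knockout replicate 2 and 0.15 in the deep libraries. The summed level of all 19 was 15.7, 16.6, 13.5 and 15.7 CPM in Atf3+/+FS6KD and 19.5, 31.8, 19.6 and 17.5 CPM in Atf3-/-FS6KD. The groups did not overlap, with replicate 2 far above the others. Ighm, the heavy chain of IgM (0.45, SE 0.15), was the single member of the 7 without overlap (14.3%, against 5.71% of all genes). Replicate 2 also had the highest MHC class II genes of all libraries, with H2-Aa, H2-Ab1, H2-Eb1 and Cd74 together at 316 CPM against 87.5 to 153 CPM in the other 7.

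**Figure D3:**
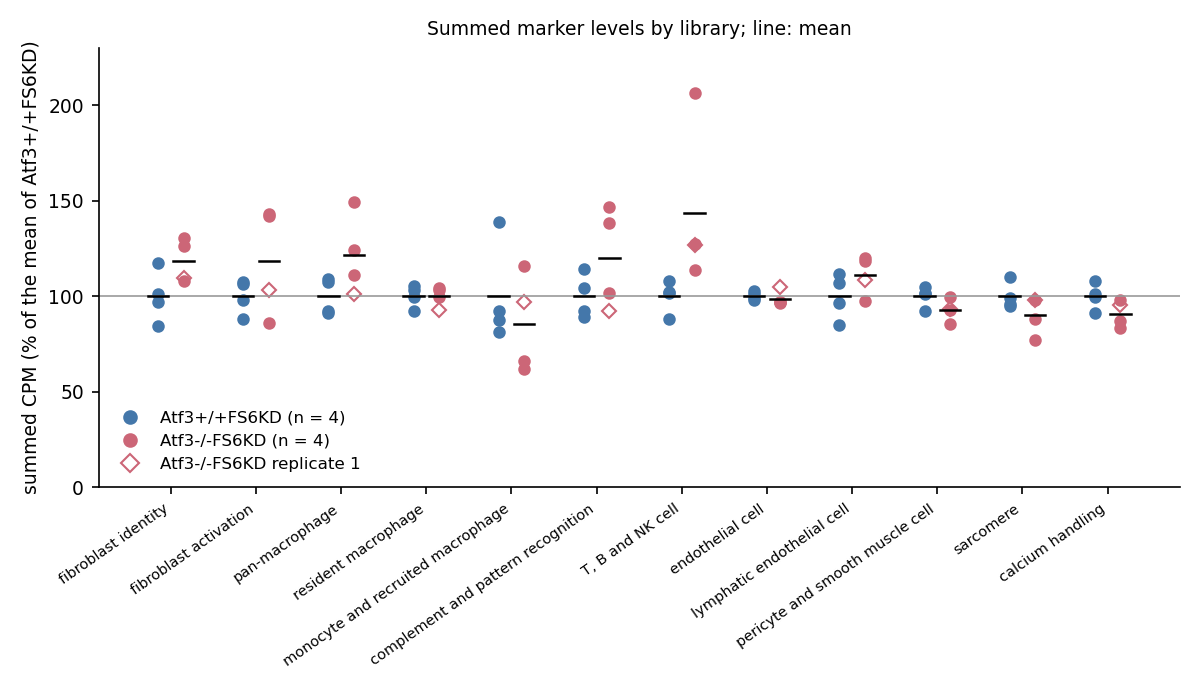
Summed CPM of 12 gene lists in each library, in percent of the mean of Atf3+/+FS6KD (vertical axis). Points are libraries, lines are group means and the open diamond is Atf3-/-FS6KD replicate 1. The fibroblast sums overlap between the genotypes, and the T, B and NK cell sum is highest in knockout replicate 2, at 31.8 CPM.

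Cardiomyocyte genes lay mostly on the lower side, by small amounts. Of 28 sarcomere genes, 25 had a log2 fold change below 0, 3 were lower and 0 higher without overlap (10.7%, against 5.71% of all genes), and the median was -0.15. Tnnt2, which encodes cardiac troponin T, was at 8161, 8081, 7334 and 7361 CPM in Atf3+/+FS6KD and at 6044, 6312, 5126 and 6584 CPM in Atf3-/-FS6KD (log2 fold change -0.36, SE 0.08, DESeq2 adjusted p 0.0100). All knockout libraries were below all wild-type libraries, and replicate 3 was the lowest. Smpx, a small muscle protein of the costamere (-0.22), and Actn2, the actinin of the Z disc (-0.16), were the other 2. Of 20 calcium handling genes, 1 was lower without overlap (5.0%, median -0.11, which was -0.06 without wild-type replicate 2 and -0.17 and -0.04 in the shallow and deep libraries), Srl, which encodes sarcalumenin (-0.16). Of 16 intercalated disc genes, 1 was lower without overlap (6.25%, against 5.71% of all genes, median -0.11), again Des.

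Of 27 genes of potassium, sodium and pacemaker channels, 21 were below 0 (median -0.18), 6 were lower at an unadjusted p below 0.05, as were 4.69% of all genes, and 0 were without overlap. The median was -0.26 in the shallow and -0.09 in the deep libraries. Kcnj5, a subunit of the muscarinic potassium channel (-0.47, SE 0.15), was among the 6. The summed sarcomere level was 96740 to 111800 CPM in Atf3+/+FS6KD and 78400 to 99610 CPM in Atf3-/-FS6KD, with overlap. CPM are shares of a library, and the part that the shares of other cell types have in these small differences was not tested.

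The 2 striated muscle actins differed in opposite directions. Acta1, the skeletal actin that is re-expressed in the stressed heart, was at 1611, 1524, 3822 and 2345 CPM in Atf3+/+FS6KD and at 1040, 1044, 1177 and 1028 CPM in Atf3-/-FS6KD (log2 fold change -1.12, SE 0.26, adjusted p 0.290 in edgeR). The knockout libraries were within a narrow range, below all wild-type libraries, and without wild-type replicate 3 the value was -0.77. Actc1, the cardiac actin, was at 7966, 6168, 7430 and 5743 CPM against 9948, 9806, 7852 and 10107 CPM (0.47, SE 0.12, DESeq2 adjusted p 0.0287), and wild-type replicate 1 overlapped with knockout replicate 3. Acta1 made up 16.8%, 19.8%, 34% and 29% of the sum of both in Atf3+/+FS6KD and 9.46%, 9.62%, 13% and 9.23% in Atf3-/-FS6KD. The share was 24.9% ± 7.96 and 10.3% ± 1.81 (SD, n = 4 each), without overlap. The coding sequences of the paralogs are nearly alike, so reads can be split between them. Of 18 genes of the fetal and stress program, only Acta1 was without overlap (5.56%, below the 5.71% of all genes), and the median was 0.08. The summed level, in which Acta1 and Ankrd1 weigh most, was 0.752 times that of wild type. The median had no stable sign, at 0.16 in the shallow libraries, -0.11 in the deep libraries and -0.0018 without knockout replicate 2.

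Genes of aldehyde and xenobiotic detoxification lay mostly on the lower side. Of 42 genes, 37 were below 0, 5 were lower and 0 higher without overlap (11.9%, against 5.71% of all genes), 12 were lower and 1 higher at an unadjusted p below 0.05 (4.69% and 5.41% of all genes), and the median was -0.17. The list included Aldh9a1 and Gsta4, whose difference in these libraries was known when it was made, and without both 3 of 40 were lower without overlap (7.5%) and the median was -0.16. Fmo1, a flavin monooxygenase, was at 33.6, 49.8, 35 and 36.4 CPM against 22.6, 26.5, 24.9 and 28 CPM (-0.60, SE 0.13, DESeq2 adjusted p 0.00324). Adh1 was at 5.23, 15.7, 9.24 and 7.49 CPM against 5.0, 5.06, 4.85 and 2.88 CPM. Its wild-type replicate 2 was the highest of the 8 and its wild-type replicate 1 nearly touched the knockout range. Aldh5a1, succinate semialdehyde dehydrogenase (-0.26), was the fifth. The summed level of the list was 2842, 3201, 2903 and 2910 CPM in Atf3+/+FS6KD and 2689, 2444, 2569 and 2681 CPM in Atf3-/-FS6KD, without overlap.

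Branched-chain amino acid and ketone oxidation was lower in 23 of 24 genes, by a median of 0.13 on the log2 scale, with 2 lower and 0 higher without overlap (8.33%, against 5.71% of all genes). Hibadh, a dehydrogenase of valine breakdown, was at 382, 428, 383 and 380 CPM against 369, 364, 321 and 344 CPM (-0.17, SE 0.07). Dbt, a core subunit of the branched-chain dehydrogenase complex (-0.31, SE 0.10), and Ppm1k, the phosphatase that activates it (-0.46, SE 0.15), had greater differences with overlap. The summed level was 7285 to 8101 CPM in Atf3+/+FS6KD and 6612 to 7175 CPM in Atf3-/-FS6KD.

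Amino acid transporters were on the higher side, with 4 of 22 higher and 0 lower without overlap (18.2%, against 5.71% of all genes) and a median of 0.25. Without Slc15a3, whose value was known when it was listed, 3 of 21 were higher (14.3%) and the median was 0.24. Besides Slc15a3 they were Slc6a9, a glycine transporter (0.62, SE 0.20), Slc1a4, a transporter of alanine and serine (0.42, SE 0.15), and Slc7a11, the cystine-glutamate exchanger (0.33, SE 0.11). Slc7a11 was at 7.09, 7.28, 6.77 and 5.46 CPM against 9.26, 7.89, 8.59 and 7.54 CPM. Slc7a11 and G6pdx, the first enzyme of the pentose phosphate pathway (0.26), were also the 2 genes higher without overlap among 20 NRF2 targets (10%, median -0.0006). Enzymes of amino acid synthesis and one-carbon metabolism had 0 of 19 without overlap, and aminoacyl-tRNA synthetases 0 of 20. Of 20 glucocorticoid response genes, 1 was without overlap (5%, below the 5.71% of all genes). It was Glul, glutamine synthetase, at 513, 631, 620 and 545 CPM against 194, 442, 300 and 343 CPM (-0.85, SE 0.21, DESeq2 adjusted p 0.00514). Its lowest library was knockout replicate 1, without which the value was -0.68.

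Of 24 genes of endoplasmic reticulum (ER) chaperones and the unfolded protein response, 20 were above 0, with a median of 0.08 and 2 higher without overlap (8.33%, against 5.71% of all genes), Manf (0.26), a secreted ER protein, and Creld2 (0.15). Of 22 heat shock genes, 19 were below 0 (median -0.14), with only the Hsp70 pair without overlap (9.09%). The median was -0.03 in the shallow libraries and -0.06 without wild-type replicate 3. Of 22 immediate early genes, 17 were below 0 (median -0.28) and 0 were without overlap. That median was -0.48 in the shallow and -0.07 in the deep libraries, and -0.18 without wild-type replicate 1. Jun, a leucine zipper partner of ATF3, was at 98.7, 103, 91.4 and 90.2 CPM against 71.8, 69.1, 72.5 and 93.7 CPM (-0.32, SE 0.10), with knockout replicate 4 inside the wild-type range. Of 30 interferon response genes, 1 was higher without overlap (3.33%, below the share of all genes), Xaf1, a proapoptotic interferon target, at 15.7, 10.3, 8.12 and 6.26 CPM against 17.1, 21.8, 17.1 and 16.6 CPM (0.86, SE 0.25, DESeq2 adjusted p 0.0451). Wild-type replicate 1 was just below the knockout range.

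Cell cycle genes had 6 of 26 higher and 0 lower without overlap (23.1%, against 5.71% of all genes), with a median of 0.25. Aurkb, Birc5 and Kif11 passed the filter only through knockout libraries, and among the 22 genes with a mean above 1 CPM 5 were higher (22.7%, median 0.18). The median of all 26 was 0.16 without knockout replicate 2. Mki67, the proliferation antigen, was at 3.34, 4.55, 3.48 and 5.18 CPM against 5.73, 10.3, 7.22 and 5.62 CPM (0.80, SE 0.22, DESeq2 adjusted p 0.0497). Tpx2 (0.67), Bub1b (0.97), Birc5 (0.72), Prc1 (0.74) and Kif20a (0.19), which act in the mitotic spindle and its checkpoint, were the others. Replicate 2 was the highest knockout library for all but Kif20a. The list depended on depth in size, with a median of 0.45 in the shallow and 0.05 in the deep libraries. Cenpf, a kinetochore gene, lay on the other side (-0.96, SE 0.34) with overlap. Of 12 replication-dependent histones, whose transcripts are made in dividing cells and mostly lack poly(A) tails, 11 were below 0 (median -0.19) and 0 were without overlap. Their median was -0.10 in the deep libraries and -0.11 without wild-type replicate 4.

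Among 48 secreted growth factors and hormones, 3 were higher and 1 lower without overlap (8.33%, against 5.71% of all genes, median 0.17). The median was 0.09 without wild-type replicate 3, 0.10 without wild-type replicate 2 or knockout replicate 3, and 0.11 over the 46 genes with a mean above 1 CPM, of which 6.52% were without overlap. Inhba, the activin A subunit, was at 2.08, 2.12, 2.17 and 2.17 CPM against 4.15, 2.36, 3.79 and 2.79 CPM (0.61, SE 0.18). The wild-type libraries were nearly equal and the knockout libraries spread above them. Igfbp3, a binding protein of insulin-like growth factors, was higher by 0.23 (DESeq2 adjusted p 0.0124), and Ereg, the growth factor epiregulin, by 1.09 at 1.04 CPM or less, above the filter only in knockout libraries. Fgf2 was the lower member. Of 19 ubiquitin ligases of muscle atrophy, 1 was lower without overlap (5.26%, below the 5.71% of all genes). It was Fbxo32 (atrogin-1), at 136, 115, 133 and 109 CPM against 98.1, 100, 92.1 and 96.8 CPM (-0.35, SE 0.08, DESeq2 adjusted p 0.0100).

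Across the 51 lists with at least 3 genes tested (the check of X-linked genes left out), 23 had a share of members without overlap above that of all genes and 15 had none. A median above 0.2 was found in 12 lists, and in all 12 it stayed above 0 in the shallow libraries, in the deep libraries and without Atf3-/-FS6KD replicate 1. Of these 12 lists, 8 held a gene above the filter only in knockout libraries. Over genes with a mean above 1 CPM in the 8 libraries and without members known to differ, 9 of the 12 kept a median above 0.2. A median below -0.1 was found in 15 lists, and it was below 0 within both depths in 14 of them and without replicate 1 in all 15. The lists hold 996 of the genes tested and 67 of the 890 genes without overlap, so that 6.73% of the listed genes were without overlap, against 5.71% of all genes.

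**Figure D4:**
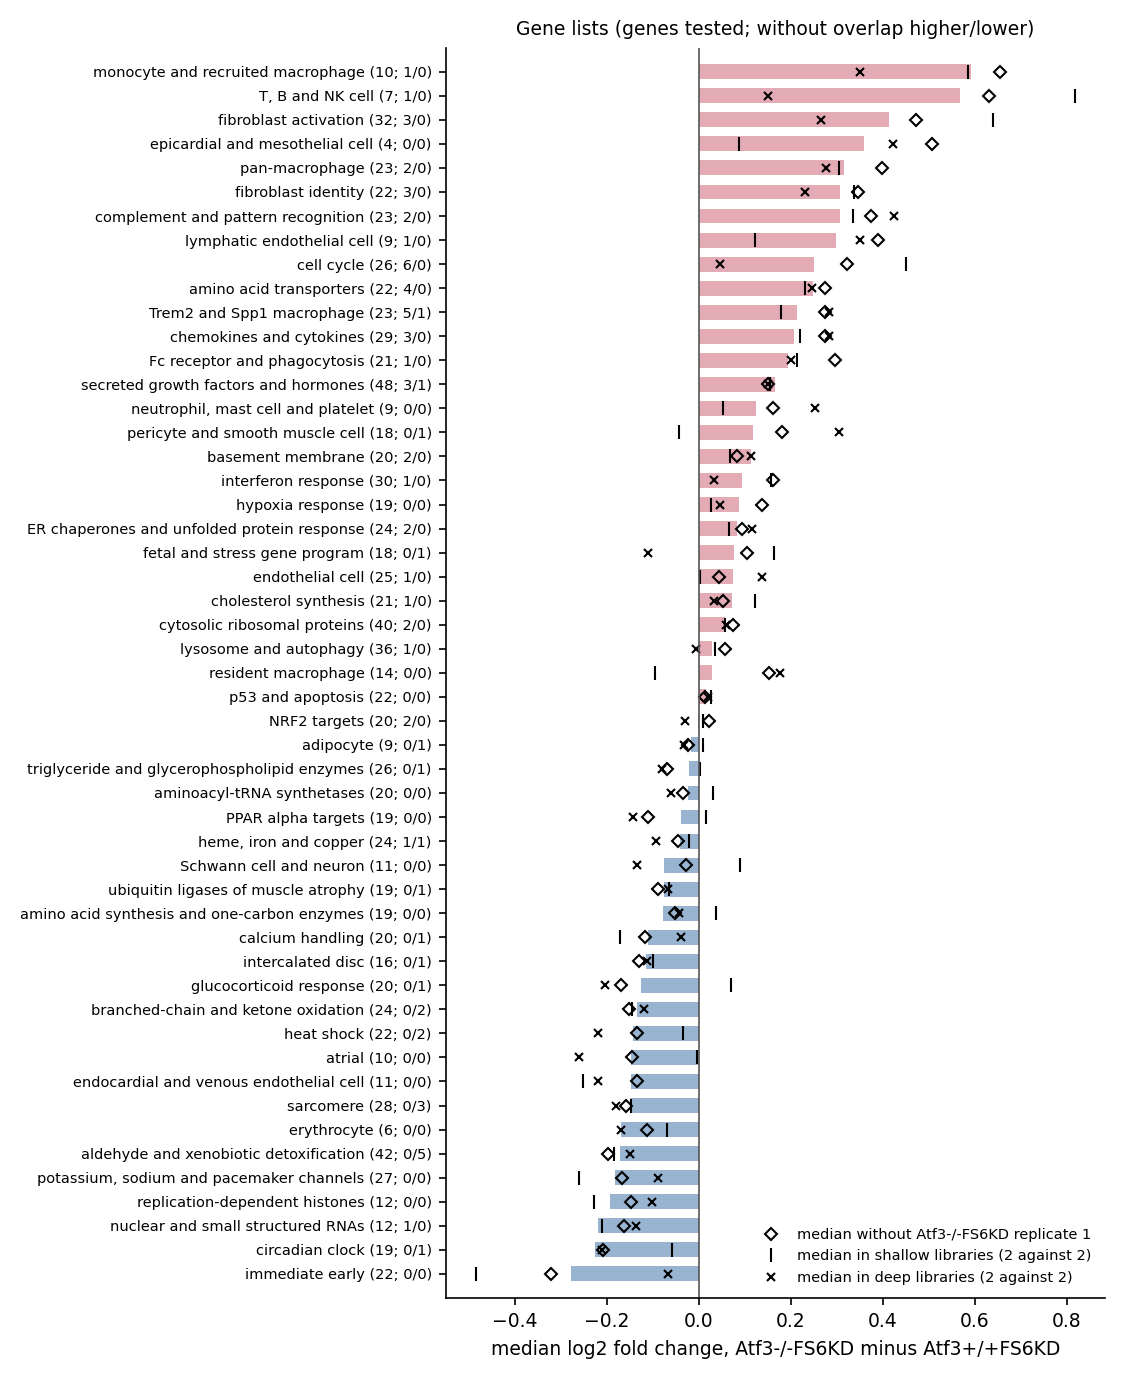
Median log2 fold change (Atf3-/-FS6KD over Atf3+/+FS6KD, horizontal axis) of the gene lists, as bars, with markers for the values within the shallow and deep libraries and without Atf3-/-FS6KD replicate 1. Fibroblast, pan-macrophage and complement lists lie above 0, and detoxification, channel and sarcomere lists below 0.

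Promoters of named genes were searched for letters that ATF family proteins are known to bind. These were TGACGTCA (the cyclic AMP response element), TGANTCA (the AP-1 site) and TTGCATCA (the composite site of C/EBP and ATF proteins, read as TGATGCAA on the other strand), in the 250 bases before the start on both strands. Promoters of 11528 of the genes tested were searched. TGACGTCA was found in 2.80% of these promoters, in 2.89% of those of genes higher and 2.87% of those lower without overlap. TGANTCA was found in 5.60%, 7.80% and 6.69%, and TTGCATCA in 0.642%, 1.16% and 1.27%. Of the 81 named genes looked up, some had no promoter in the search, Lox and Piezo2 among them, and were not searched. Promoters of 57 named genes were searched, and 6 of these genes held a match. The promoters of 4 of them are shown because they belong to the targeted gene and to members of the transporter, interferon and monocyte lists, with the match in capitals (RefSeq, GRCm38.p6, each written 5′ to 3′ on the strand of the gene). They lie at chr1:191183334-191183583 (minus strand, Atf3), chr3:50443614-50443863 (minus strand, Slc7a11), chr11:72301379-72301628 (plus strand, Xaf1) and chr7:128129300-128129549 (plus strand, Itgax).
Atf3: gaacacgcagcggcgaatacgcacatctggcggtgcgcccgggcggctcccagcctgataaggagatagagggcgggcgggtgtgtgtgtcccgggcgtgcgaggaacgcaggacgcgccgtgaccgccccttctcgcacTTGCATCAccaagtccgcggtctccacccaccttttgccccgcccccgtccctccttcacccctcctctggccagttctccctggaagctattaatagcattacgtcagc
Slc7a11: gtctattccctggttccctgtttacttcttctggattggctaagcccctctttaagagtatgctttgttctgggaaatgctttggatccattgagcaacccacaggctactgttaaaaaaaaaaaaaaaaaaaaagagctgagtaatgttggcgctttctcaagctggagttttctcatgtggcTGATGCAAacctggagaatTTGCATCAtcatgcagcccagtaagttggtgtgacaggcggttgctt
Xaf1: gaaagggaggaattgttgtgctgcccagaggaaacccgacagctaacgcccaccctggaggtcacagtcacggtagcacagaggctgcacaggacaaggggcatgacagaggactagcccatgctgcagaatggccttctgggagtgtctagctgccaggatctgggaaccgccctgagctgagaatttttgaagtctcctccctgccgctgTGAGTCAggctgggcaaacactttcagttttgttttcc
Itgax: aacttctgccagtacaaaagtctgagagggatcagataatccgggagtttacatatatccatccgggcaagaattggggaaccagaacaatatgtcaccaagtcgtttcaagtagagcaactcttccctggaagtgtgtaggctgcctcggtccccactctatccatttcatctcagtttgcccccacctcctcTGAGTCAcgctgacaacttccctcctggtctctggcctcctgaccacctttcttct
The Atf3 promoter holds TTGCATCA 110 bases before the start, and that of Slc7a11 holds it on both strands, 66 and 47 bases before the start. Xaf1 and Itgax hold TGANTCA 38 and 56 bases before the start. Not shown are Nlrp3, with TGATGCAA 78 bases before the start, and Meg3, with TGACGTCA 57 bases before it. Meg3 was the only gene of the 6 with TGACGTCA. A match describes these letters and does not show that a protein binds them.

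By position, chromosome 1, which carries Atf3, had 93 of 849 genes tested without overlap (11%), 45 higher and 48 lower, against 741 of 13845 (5.35%) on the other chromosomes. Of the 24 named genes, 4 lie there, 3 of them lower (Lgr6, Cryzl2 and Ramp1) and 1 higher (Npl). Glul, Tnnt2, Des, Fmo1 and Aldh9a1 lie on it too, and so do Col3a1 and Fn1. The part of the chromosome in their difference was not tested.

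EdgeR called more genes between the deep and shallow libraries than between the genotypes, although the first principal component separated the genotypes and not the depths. With genotype in the model, edgeR called 55 of 15592 genes (0.353%), 51 higher and 4 lower in the deep libraries. Uqcrq, a subunit of complex III, was at 425 to 502 CPM in the 4 shallow and at 582 to 711 CPM in the 4 deep libraries (log2 difference 0.52), and Rpl36, a ribosomal protein, at 89.4 to 97.1 and 129 to 142 CPM (0.51). Igfals, an insulin-like growth factor carrier (1.08), Bmyc (0.59) and Tpgs1 (0.57) were higher too. Transcripts of high GC content were the higher ones. The median log2 difference went from -0.06 in the tenth of genes with the lowest GC content (median 39.7%) to 0.20 in that with the highest (59.6%). Across 13794 genes with a transcript, Spearman's rho with GC content was 0.398 for deep against shallow libraries and 0.0317 for knockout against wild type, as a description across genes that are not independent. Each genotype had 2 shallow and 2 deep libraries. No gene (0 of 15592, 0%) was called by edgeR for a genotype difference that itself differed with depth, 430 had an unadjusted p below 0.05, and DESeq2 called 14.

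**Figure D5:**
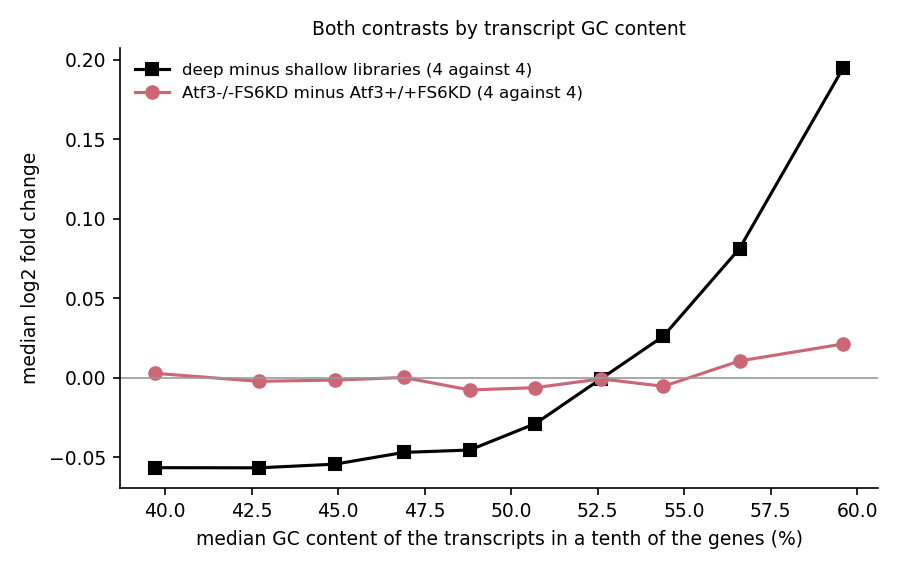
Median log2 difference (vertical axis) of genes in 10 classes of transcript GC content (horizontal axis, percent), for deep against shallow libraries and for Atf3-/-FS6KD against Atf3+/+FS6KD. The depth line goes from -0.06 to 0.20 and the genotype line stays near 0.

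Of the 4 genes lower in the deep libraries, the 2 with the greatest difference are neighbors. Dnah8, an axonemal dynein gene, was at 2.13, 2.27, 2.34 and 3.33 CPM in the shallow and at 0.410, 0.339, 0.459 and 0.455 CPM in the deep libraries (log2 difference -2.59). Glo1, which encodes the methylglyoxal-detoxifying enzyme glyoxalase 1, was at 197 to 218 CPM in the shallow and at 130 to 140 CPM in the deep libraries (-0.61). Glo1 (chr17:30592861-30612659) and Dnah8 (chr17:30626935-30875762) are 14.3 kb apart. In both genes the 4 shallow libraries were separated from the 4 deep ones whatever the genotype, and the GC content of the 4 genes lower in deep libraries (median 47.4%) was below that of all genes (49.8%).

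Single libraries differed from all others in sets of genes, some of which lie side by side. Among 9726 genes with a mean above 3 log2 CPM, between 8 and 70 genes per library lay more than 0.5 log2 from the nearest of the other 7. Atf3+/+FS6KD replicate 2 had the most, 31 higher and 39 lower. Its Gdf15, a stress-induced hormone of mitochondrial disease, was at 2.03 CPM against 7.61 to 22.0 CPM in the others, its Cdkn1a, the p53 target p21, at 6.09 against 14.0 to 25.4 CPM, and its clock gene Arntl at 2.12 against 4.84 to 22.1 CPM. Atf3+/+FS6KD replicate 1 had low Scpep1 (3.8 against 10.1 to 17.1 CPM), Mrps23 (23.4 against 52.9 to 97.7 CPM) and Dynll2 (173 against 299 to 471 CPM), neighbors between 80 and 90 Mb of chromosome 11. Atf3+/+FS6KD replicate 3 had the highest ribosomal transcript Rn28s1 (114 against 6.02 to 25 CPM) and the highest metallothionein Mt2 (45.6 against 10.3 to 21.9 CPM). Atf3+/+FS6KD replicate 4 had the highest Alad, an enzyme of heme synthesis (172 against 41.4 to 53.4 CPM), the lowest Strit1, which encodes a micropeptide that activates the calcium pump SERCA (12.2 against 36.4 to 83.7 CPM), and the lowest mitochondrial ribosomal RNA mt-Rnr2 (3203 against 5127 to 6121 CPM).

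Among the knockout libraries, replicate 1 was distinct beyond Xist. Hbb-b2, a beta-globin gene that the annotation places on an alternate sequence of the globin locus, was at 14.0 CPM in it against 0.224 to 0.436 CPM in the other 7, and Hbb-b1 at 103 against 18.1 to 31.5 CPM. The beta-globin genes of the reference haplotype, Hbb-bs and Hbb-bt, were the lowest of all libraries in it, at 78.9 and 41.7 CPM, whereas Hba-a1, an alpha-globin, lay inside the range of the others. Ucp2, an uncoupling protein whose gene lies on chromosome 7 like the globin locus, was at 139 CPM in this library against 29.9 to 56.7 CPM. On chromosome 1, Sox13, Lgr6, Arl8a and Phlda3, all between 130 and 140 Mb, were lowest in it, as was Glul. Replicate 4 had the lowest Apobec3 and Cbx7 (3.00 against 8.68 to 16.8 CPM), which are neighbors on chromosome 15, and the lowest Nppa, the atrial natriuretic peptide (283 against 502 to 695 CPM). The parental origin of these regions was not tested in the mixed background.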

How the data were processed

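RNA had been extracted from whole hearts, and stranded mRNA libraries had been sequenced as single ends. Per the labels and the study's methods, reads were mapped to GRCm38.p6 and assigned to genes with featureCounts 2.0.0, and the aligner and the use of strand in counting are not given in the sources used here. The authors deposited 1 estimated count per gene and library, without normalization or pooling. In each library 19.5% to 24.4% of 42396 entries had decimals (any deviation from a whole number counted), so values were rounded before testing, whereas the design had assumed whole counts. Of the symbols, 40017 matched RefSeq and 2379 were copies on alternate loci. Overlapping and antisense genes can share reads. No pair of replicates agreed within sampling noise (mean chi-square per gene 30.3 to 125), and 0 columns of other samples were left out. Total counts of 33914931 to 134920825 limit genes near 1 CPM most.

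Genes above 1 CPM in at least 1 library were tested with edgeR 4.0.16 in R 4.3.3 (two-sided quasi-likelihood test with TMM and no covariate, at a Benjamini-Hochberg adjusted p below 0.05). The genotypes were said not to overlap when the lowest library of one exceeded the highest of the other in TMM-scaled CPM. Depth and its interaction with genotype were tested in the same way. DESeq2 1.42.0, limma 3.58.1 (log2 CPM, prior count 2), other scalings and filters, thinning, depth terms and leaving out libraries were alternatives. The tests were checked on simulated counts in which all genes had the same dispersion, a simpler setting than these data. That check does not show how many changes could be called here. Named were Atf3 and Ndufs6; the 12 genes per direction with the greatest fold change among those without overlap, at an unadjusted p below 0.05 and mean log2 CPM above 1, without predicted genes and copies; up to 4 members per list without overlap, by p; up to 5 genes per direction between depths; and up to 5 per library. Actc1, Timp1, Tnc, Timd4, Ly6c2, Kcnj5, Dbt, Ppm1k, Jun, Aldh5a1, Prc1, Kif20a, Cenpf, Cd74, Dynll2, Nppa, mt-Rnr2, the globin genes, Sox13, Arl8a and Phlda3 were added after their values were seen. Members and lists were chosen with earlier results of these data known. Lists were described by counts and medians, without tests, and some single members are not reported here. Promoter sequences came from RefSeq (GRCm38.p6).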

Additional observations from a re-analysis of the deposited data

Results flagged for a closer look

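In 358 groups of 4 libraries (127 genes and 52 list sums in each genotype), the value of 1 library lay far from the other 3 in 46 cases (12.8%). The measure is the gap of the extreme library to its nearest neighbor as a share of the range of the group. Chance gives about 1 in 20, and many of the genes had been chosen for such a gap, so the number is a description.

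In Atf3+/+FS6KD, replicate 1 was far from the others in Atf3 (ratio 0.97), Spp1 (0.97), Cthrc1 (0.98), the summed amino acid transporters (0.86), Manf (0.87), Mrps23 (0.83) and Tmem100 (0.91). In Atf3, Spp1 and Cthrc1 it was the highest, at 25.7, 1.60 and 0.716 CPM, on the side of the knockout libraries. Replicate 2 stood apart in Hibadh (0.93), Rps18 (0.88) and Slc1a4 (0.89). Replicate 3 did so in Rgcc (0.94), Rn28s1 (0.87), Tlr2 (0.84) and the heat shock sum (0.90), and replicate 4 in Alad (0.95), H2-Ab1 (0.83), Heph (0.84) and the sum of nuclear and small structured RNAs (0.86).

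In Atf3-/-FS6KD, replicate 1 was apart in Xist (0.87), Hbb-b1 (0.91), Ucp2 (0.89), Cntn5 (0.84) and the endothelial sum (0.94). Replicate 2 held the most cases, most of them in immune genes: H2-Aa (0.86), H2-Ab1 (0.96), Ctss (0.85), Itgax (0.94), Ighm (0.88), Tlr2 (0.85), Xaf1 (0.90) and the T, B and NK cell sum (0.85) were highest in it. It was also apart in Birc5 (0.83), Lars2 (0.91), Lpl (0.85), Nr4a3 (0.95), Rgcc (0.84), Smpx (0.94) and Wdfy1 (0.91). Replicate 3 was apart in Acta1 (0.89), Col1a1 (0.88), Fmn1 (0.98), Manf (0.85) and Rora (0.89), and replicate 4 in Adh1 (0.90), Apobec3 (0.90) and Cbx7 (0.89). The cause of these gaps was not tested.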

How the results depend on the processing

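EdgeR called 0 genes between the genotypes, as did limma, other scalings, edgeR's own filter, depth as a term and thinning to the shallowest total. The count was 208 with DESeq2, 2 with no filter and 8 in the deep libraries alone. Leaving out 1 library gave 0 to 15 genes, namely 15 without wild-type replicate 1 or knockout replicate 3, 6 without wild-type replicate 4, 1 without replicate 2 of either genotype, and 1 (Pigp) when wild-type replicate 2 and knockout replicate 1 were both left out, which was added after seeing the data. Genes without overlap numbered 890, and 829 to 1196 under other scalings and filters. With fewer libraries, overlap is less likely by construction, and the count was 1215 to 1631 without 1 library, 2383 without those 2 together, 5634 in the shallow and 6239 in the deep libraries alone. With no filter, 177 genes were called between depths and 3 for the interaction, and DESeq2 called 746 and 14. The cause of these differences was not tested. The replicate numbers did not pair the libraries (same-number correlations of 0.145, 0.0860, 0.00635 and 0.127), and a replicate block left the count of genotype calls at 0. None of the 81 named genes changed direction in 1701 recomputations, and 43 of these newly passed the threshold, 36 of them with DESeq2. Besides Atf3 and Ndufs6, these genes had been named because their groups did not overlap. Leaving out libraries could therefore hardly reverse them, and the stable direction is no check of it. Of 33 list medians beyond 0.1, 5 changed sign under some alternative. The counts of list members with a mean above 1 CPM, or without members known to differ, were added after seeing the data. Genes near 1 CPM, such as Cthrc1, Itgax and Nlrp3, rest on the fewest counts.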
